A study of Ovis aries with 32 samples.

Results

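MT1A and MT2A, the metallothionein genes of the sheep array, were followed in MCA segments from 4 ages, untreated and after Alpha1AR stimulation with PHE. The members were chosen by gene symbol, taking MT1A, MT2A and any other symbol that begins with MT1 or MT2 followed by a letter. This gave 2 genes with 1 probe each, among 14291 genes and unnamed probes. Neither probe carries a symbol in the array files. Both were named by matching the group means in the authors' list of PHE-altered genes to the arrays, and both matched at all 4 ages. Where a probe had a name both from that list and from its accession, the names were the same for 61 of 79 probes. The difference between PHE-treated and untreated arteries therefore chose them, and it is given here as a description without a test. MT3 and MT4, which lie outside this choice and were named by accession, are given for comparison.

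The segments were measured on 32 single-colour arrays, 4 untreated and 4 PHE-treated at each age. Treated segments were held with 10 µM PHE in the tissue bath for 30 minutes, and untreated segments received none. The 4 age groups were premature fetuses (96 days of gestation), near-term fetuses (140 days in the methods, 146 days in the sample labels), newborn lambs (5 days old in the methods, 12 hours in the labels) and non-pregnant adult sheep (18 to 24 months in the methods, 2 years in the labels). The methods give 4 animals per experiment but do not state that untreated and treated segments with the same number came from the same animal, so that p-values measure the spread between these samples.

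Metallothioneins are small proteins rich in cysteine that bind zinc and copper and buffer the free zinc of the cell. The promoters of MT1 and MT2 genes carry metal response elements, which the zinc sensor MTF1 binds, and these genes are also known to respond to glucocorticoids, to cytokines such as IL6, and to oxidants. MT3 is the form known from brain, and MT4 the form known from stratified epithelium.

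Levels are log2 intensity relative to the 75th percentile of the array, so that 0 is the 75th percentile and a difference of 1 is a doubling. Testing required a probe well above background in every replicate of 1 or more of the compared groups. A gene was called where limma's Benjamini-Hochberg adjusted p was below 0.05 and the fold change was at least 1.5. The number of arrays limits the precision. Each SE comes from limma's spread common to all groups, so that for a gene it is the same at every age. For MT2A the SD within a group ran from 0.064 (untreated premature) to 1.498 (PHE-treated near-term). The SE is therefore not the spread of the arrays at that age. The 75th percentile intensity was 125 to 1387 on untreated and 373 to 1683 on PHE-treated near-term arrays, against 648 to 1730 on the remaining 24. On near-term untreated replicate 4 it was only 1.43 times the local background. The whole near-term PHE group lay on slide 1 with that array, and the remaining near-term untreated arrays shared slides 2 and 3 with adult arrays.

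With PHE, MT1A and MT2A stood far above their untreated levels at every age. In the premature fetus MT1A was -4.57, -3.97, -4.67 and -4.26 on untreated replicates 1 to 4 and 5.10, 4.99, 5.58 and 5.66 with PHE. MT2A was -1.56, -1.66, -1.59 and -1.51 untreated and 4.74, 4.77, 5.40 and 5.58 with PHE. The untreated premature arrays had the smallest SD and the lowest levels of all groups for both genes, and MT1A was well above background on only 3 of 4 of them. The PHE effect was 9.70 ± 0.75 (SE) for MT1A, an 832-fold difference, and 6.70 ± 0.60 for MT2A, a 104-fold difference. The size for MT1A depends on the dim untreated values, and with normexp background correction it was 7.32.

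In the near-term fetus MT1A was -2.22, -3.15, -2.81 and -1.35 untreated and 3.94, 4.83, 1.89 and 3.70 with PHE. MT2A was -0.46, -0.57, 0.29 and 1.13 untreated and 4.32, 5.81, 2.27 and 3.39 with PHE. Replicate 3 was the lowest PHE-treated array for both genes and lay above every untreated array. The PHE effect was 5.97 ± 0.75 (SE), or 62.7-fold, for MT1A and 3.85 ± 0.60, or 14.4-fold, for MT2A. Among the arrays of slide 1 alone, where 4 PHE arrays stood against a single untreated array, it was 4.94 and 2.81.

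In the newborn lamb MT1A was -2.36, -0.89, 2.55 and 1.11 untreated and 6.06, 5.49, 6.11 and 6.74 with PHE. MT2A was -1.15, -0.12, 2.15 and 0.98 untreated and 5.50, 5.11, 5.61 and 6.13 with PHE. Untreated replicates 3 and 4 were high for both genes and replicates 1 and 2 low, a spread that was not seen among the PHE-treated arrays. The PHE effect was 5.998 ± 0.75 (SE), or 63.9-fold, for MT1A and 5.12 ± 0.60, or 34.8-fold, for MT2A.

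In the adult sheep MT1A was -1.62, -0.26, -2.90 and -1.66 untreated and 6.95, 4.19, 6.32 and 6.41 with PHE. MT2A was 2.65, 3.36, 1.55 and 2.29 untreated and 6.60, 5.07, 6.34 and 6.37 with PHE. Replicate 2 was the highest untreated and the lowest PHE-treated array for both genes, and the groups did not overlap. The PHE effect was 7.58 ± 0.75 (SE), or 191-fold, for MT1A and 3.63 ± 0.60, or 12.4-fold, for MT2A. On slide 3 alone, with 4 PHE and 2 untreated adult arrays, it was 6.91 and 3.08.

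**Figure D1:**
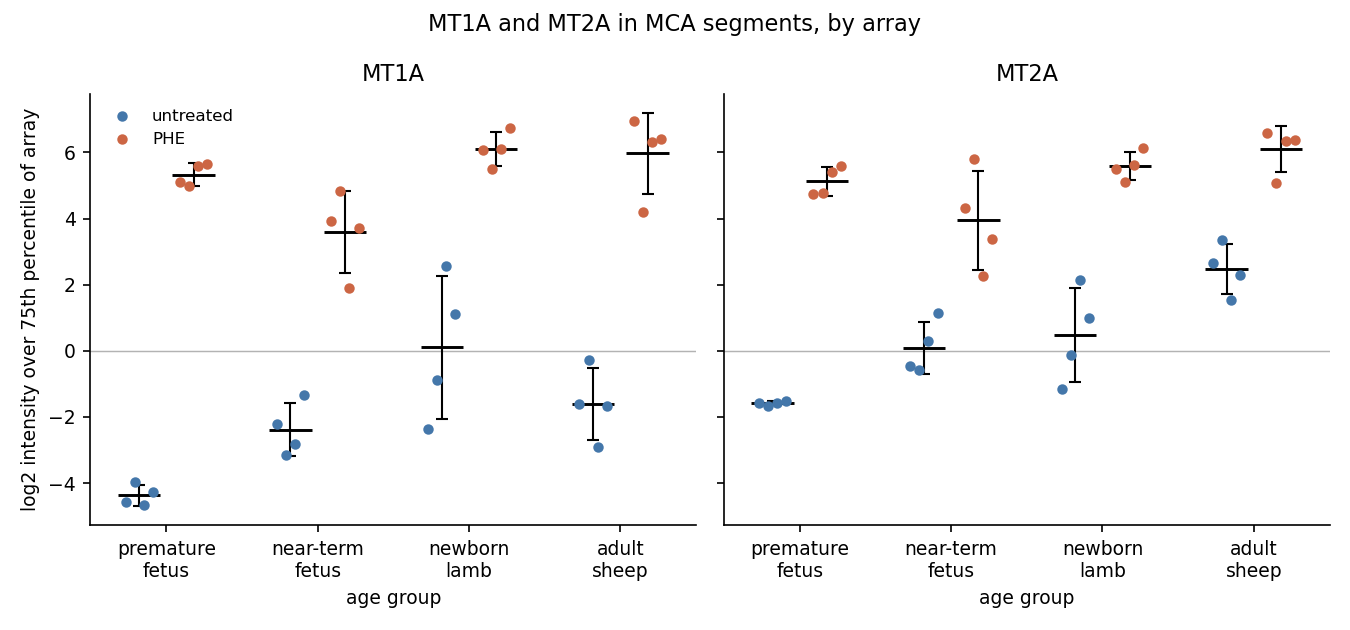
MT1A and MT2A on each array (log2 intensity over the 75th percentile of the array) by age, untreated in blue and PHE-treated in orange, with the mean as a bar and the SD as an error bar (n = 4). Within each age every PHE-treated array lies above every untreated array, and untreated newborn MT1A is the most spread, from -2.36 to 2.55.

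Within each age no PHE-treated array overlapped an untreated one for either gene. Taken by replicate number, PHE minus untreated was positive in 4 of 4 differences at each age. It ran from 8.96 to 10.25 for MT1A in the premature fetus and from 1.71 to 4.79 for MT2A in the adult sheep. Of all genes tested, 8.71% were called higher and 8.79% lower with PHE in the premature fetus, 17.2% and 18.7% near term, 5.48% and 5.5% in the newborn lamb, and 2.78% and 0.909% in the adult sheep. Ordered by the size of the rise, MT1A was number 2 of 9764 genes in the premature fetus, 17 of 9546 near term, 8 of 9418 in the newborn lamb and 3 of 9244 in the adult sheep. MT2A was number 10, 61, 17 and 52. Since the PHE effect chose both genes, nothing is read from these ranks.

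Many of the bright values came from a second scan. Of the 32 PHE-treated values of MT1A and MT2A, 26 were scaled up from the scanner's low detector setting, against 0 of the 32 untreated values and 1.89% of all probe values. None was saturated. The part of this scaling in the size of the PHE effect was not tested. Markers of blood, leukocytes, fibroblasts and endothelium also differed with PHE, and their summed levels are given as multiples of the 75th percentile. For blood, HBA1 and HBB of 8 markers were on the array, HBA1 the more abundant, and 1 of 2 was called lower in the premature fetus, 1 of 2 near term and none later. The sum was 27.7 to 50.9 on untreated and 10.9 to 12.5 on PHE-treated premature arrays, 12.6 to 23.3 and 1.51 to 7.58 near term, 23.7 to 37.9 and 12.8 to 16.8 in the newborn lamb, and 2.60 to 9.36 and 2.61 to 4.16 in the adult sheep. For leukocytes, 6 of 10 markers were on the array, CD14 the most abundant, and 1 marker was called higher near term, in the newborn lamb and in adult arteries. Their sum was 1.93 to 2.21 untreated and 3.099 to 5.45 with PHE in the premature fetus, without overlap, 2.49 to 5.13 and 0.874 to 2.68 near term, 1.01 to 5.48 and 3.94 to 6.42 in the newborn lamb, and 0.391 to 0.989 and 0.562 to 2.14 in the adult sheep. Near term 4 of 5 fibroblast markers (DCN the most abundant untreated) and 2 of 3 endothelial markers (KDR the most abundant untreated) were called higher with PHE, with sums of 21.5 to 86.0 and 61.0 to 164 for fibroblasts and 0.169 to 0.673 and 0.608 to 1.35 for endothelium. At the other ages 1 of 5 fibroblast markers was called higher in the premature fetus and none later, and no endothelial marker was called. This order of ages was not stable. The methods' t-test with adjustment called 4 fibroblast, 1 endothelial and 2 leukocyte markers higher in the premature fetus and 0 of each near term. It called 1 blood marker lower in the premature fetus, 0 near term and 1 in the newborn lamb. The fibroblast sum was 94.8 to 103 untreated and 86.7 to 110 with PHE in the premature fetus, 21.6 to 59.3 and 59.9 to 70.8 in newborn arteries, without overlap, and 7.23 to 18.9 and 6.77 to 24.3 in adult ones. In the premature fetus DCN, the most abundant, had a lower mean with PHE (5.95 against 6.41). COL1A1 (3.42 against 1.97), COL1A2, COL3A1 and FBLN1 had higher means there. In bulk tissue fewer cells of a type and less RNA per cell cannot be told apart, and the part of these cells in the metallothionein values was not tested.

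MT1A changed by more than MT2A at each age. The PHE effect of MT1A exceeded that of MT2A by 2.997 in the premature fetus, 2.12 near term, 0.88 in newborn and 3.95 in adult arteries. With normexp the effects of MT1A and MT2A were 7.32 and 6.12 in the premature fetus, 4.48 and 3.71 near term, 5.58 and 4.99 in newborn and 7.23 and 3.46 in adult arteries. Array by array, the change of MT1A relative to MT2A separated treated from untreated arteries at every age except the newborn lamb, where the arrays overlapped. This difference between the genes was not tested.

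**Figure D2:**
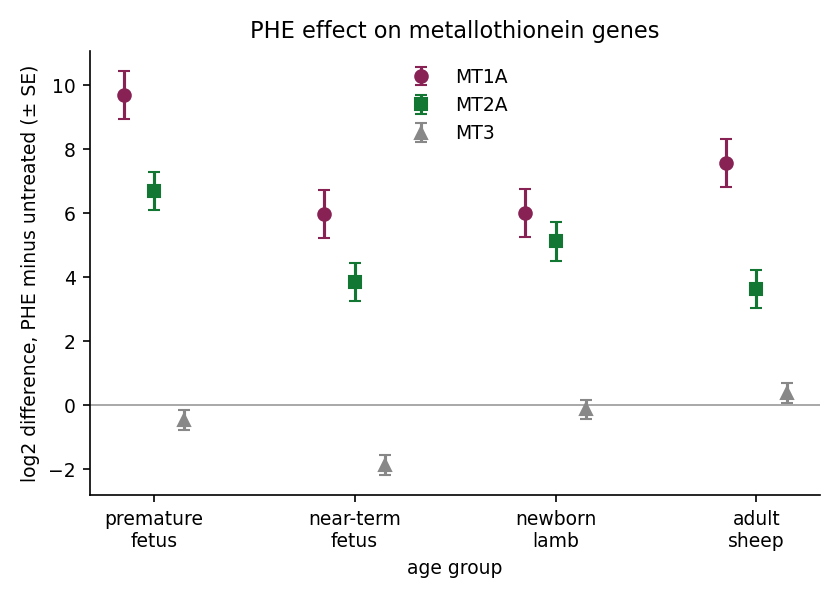
PHE effect (log2 difference, PHE minus untreated, n = 4 against 4, ± SE from the spread common to all groups) on MT1A, MT2A and MT3 by age. MT1A and MT2A lie above 0 throughout, with the largest value for MT1A in the premature fetus (9.70), while MT3 is lowest near term (-1.87).

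Untreated arteries differed in metallothionein level with age. These comparisons were made between ages whose arrays were scanned on the same day. MT1A was higher in the newborn lamb (0.10 ± 2.17 (SD), n = 4) than in the premature fetus (-4.37 ± 0.32), a difference of 4.47 ± 0.75 (SE), and all 4 newborn arrays lay above all 4 premature arrays. The probe was well above background on only 3 of 4 premature arrays and passed the filter through the newborn ones alone, so that no p is given from the filtered fit. In the fit with no filter on dim probes limma's adjusted p was 0.000371, and with normexp the difference was 2.56. The methods' t-test with adjustment, under the same filter, missed the threshold for MT1A. MT2A was also higher, 0.47 ± 1.42 (SD) against -1.58 ± 0.06, a difference of 2.05 ± 0.60 (SE) shown by 4 of 4 newborn arrays (limma, adjusted p = 0.023). Of 9559 genes tested, 11.5% were called in this comparison. The MT2A call rested on newborn untreated replicate 3, without which the difference was 1.49 (limma, adjusted p = 0.125), on replicate 4 (1.88, adjusted p = 0.0793) and on premature untreated replicates 2 and 3 (adjusted p = 0.0527 and 0.0502). It was also lost with normexp (1.34, adjusted p = 0.137) and with the methods' t-test with or without adjustment. Premature arrays lay on slide 5 and newborn arrays on slide 4, so that slide and age cannot be told apart.

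Some markers of other cells moved in the same comparison. For smooth muscle, 2 of 9 listed markers were on the array, CNN1 and CALD1, and both rose. Their summed level was 104 to 171 on untreated newborn arrays and 30.1 to 37.5 on untreated premature arrays. Of leukocyte markers 0 of 3 tested were called, and CD3D and ITGAM were not well above background on any of these arrays. The summed leukocyte level was 3.33, 1.961, 5.48 and 1.01 on newborn replicates 1 to 4 and 1.93 to 2.21 in the premature fetus, with overlap. Among the newborn arrays replicate 3 was the highest in leukocyte and the lowest in smooth muscle markers, and replicate 4 the lowest in leukocyte and the highest in smooth muscle markers. Both metallothioneins were high on these arrays. Of markers for fat, endothelium, fibroblasts and blood, 1 of 3 for fat was called higher, and 1 of 3 for endothelium, 1 of 5 for fibroblasts and 1 of 2 for blood lower. Their sums on untreated newborn and premature arrays were 0.291 to 1.23 and 0.138 to 0.199 for fat, 0.228 to 0.327 and 0.639 to 0.780 for endothelium, 21.6 to 59.3 and 94.8 to 103 for fibroblasts, and 23.7 to 37.9 and 27.7 to 50.9 for blood. The part of these cells in the difference was not tested.

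When adult arteries were set against near-term ones, MT2A passed the test and MT1A did not. It was higher in adult arteries (2.46 ± 0.76 (SD), n = 4) than near term (0.10 ± 0.79), by 2.37 ± 0.60 (SE), and all 4 adult arrays lay above all 4 near-term arrays (limma, adjusted p = 0.00208). With slide as a block the difference was 2.84 (adjusted p = 0.000937), within slide 3 it was 3.15 on 2 arrays a side, and within slide 2 it was 2.38 on 2 adult arrays against 1 near-term array, where the call was lost (adjusted p = 0.0776). It was kept in the other 15 of 16 alternatives. For MT1A the difference was 0.77 ± 0.75 (SE), with overlapping arrays (limma, adjusted p = 0.411) and a 95% interval from -0.70 to 2.24. Slide 2 alone gave -0.06, slide 3 alone 2.04, and another background correction (normexp) -0.48, so that its direction was not stable. Of 9392 genes tested, 43.9% were called, so that a call in this comparison is common. The median of all genes here moved from -0.01 to 0.26 with quantile normalization and to 0.51 with scaling to the median, where MT2A was still higher by 2.18 and 2.89. Among markers of the cell types named here, those called lower in adult arteries were 4 of 5 for fibroblasts, 3 of 3 for leukocytes, 2 of 2 for blood, 1 of 2 for endothelium and 1 of 2 for fat, and none of 2 for smooth muscle was called. Their sums on untreated adult and near-term arrays were 7.23 to 18.9 and 21.5 to 86.0 for fibroblasts, 0.391 to 0.989 and 2.49 to 5.13 for leukocytes, 2.60 to 9.36 and 12.6 to 23.3 for blood, and 0.147 to 1.52 and 0.396 to 1.31 for fat. For endothelium they were 0.127 to 0.448 and 0.169 to 0.673, with overlap, and the mean of ENG was higher in adult arteries (-2.73 against -3.04). The part of these cells in the difference was not tested.

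Across the 8 groups, MT1A was lowest in untreated premature arteries and then had increasing means through untreated near-term (-2.38), adult (-1.61) and newborn (0.10) arteries to PHE-treated near-term (3.59), premature (5.33), adult (5.97) and newborn (6.10) arteries. The arrays of neighbouring groups in this order overlapped except for premature and near-term untreated arteries and for near-term and premature PHE-treated arteries. MT2A followed the order premature (-1.58), near-term (0.10), newborn (0.47) and adult (2.46) among untreated arteries, then near-term (3.95), premature (5.12), newborn (5.59) and adult (6.09) with PHE. Here only the premature untreated arrays were apart from the next group, and 3 of 4 untreated adult arrays reached the range of PHE-treated near-term arteries. Ages scanned on different days stand in these orders side by side without a test, since scan day and age cannot be told apart there.

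The PHE effect was smaller near term than in the premature fetus for both genes, each effect being taken within its own age and scan day. Since the PHE effect chose the genes, differences between their effects are given as a description as well. The difference was -3.73 ± 1.06 (SE) for MT1A, and taken by replicate number all 4 near-term differences, 4.70 to 7.97, lay below all 4 premature differences, 8.96 to 10.25. For MT2A it was -2.85 ± 0.85 (SE), where 3 of 4 near-term differences lay below every premature one. Numbers were not taken as pairing near term, so that this MT2A count depends on the numbering. Of 10279 genes tested, 4.82% were called in this contrast.

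Between the newborn lamb and the premature fetus the difference of effects was -3.70 ± 1.06 (SE) for MT1A and -1.58 ± 0.85 for MT2A, where 0.0202% of 9924 genes were called. All 4 newborn differences of MT1A lay below all 4 premature ones. The genes called in this contrast, chosen here after their values were seen, were CEBPD (-2.52 ± 0.43, limma, adjusted p = 0.0323) and CEBPB (-2.39 ± 0.44, adjusted p = 0.044), which encode transcription factors. In this contrast 1 gene was called with the replicate block, 0 with scaling to the median, 3 with quantile normalization and 70 in the fit to the arrays of these ages alone. At least 1 of these 2 calls was thus lost with the block, and both with scaling to the median. For adult minus near-term arteries the difference was 1.61 ± 1.06 (SE) for MT1A and -0.22 ± 0.85 for MT2A, with 11.9% of 9962 genes called. For adult minus newborn arteries it was 1.58 and -1.49, with 0.0999% of 10006 genes called.

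MT1A and MT2A varied together from array to array. Their levels correlated with Pearson's r of 0.949 and Spearman's rho of 0.950 over 32 arrays, which share the contrast between treated and untreated arteries. Deviations from the group means, which leave that contrast out, correlated with 0.918 and 0.888, so that an array high for its group in MT1A tended to be high in MT2A. This did not hold in every group. Untreated premature replicate 2 was the highest of its group in MT1A (-3.97) and the lowest in MT2A (-1.66). Both genes share the scaling of the array, and its part in this was not tested.

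**Figure D3:**
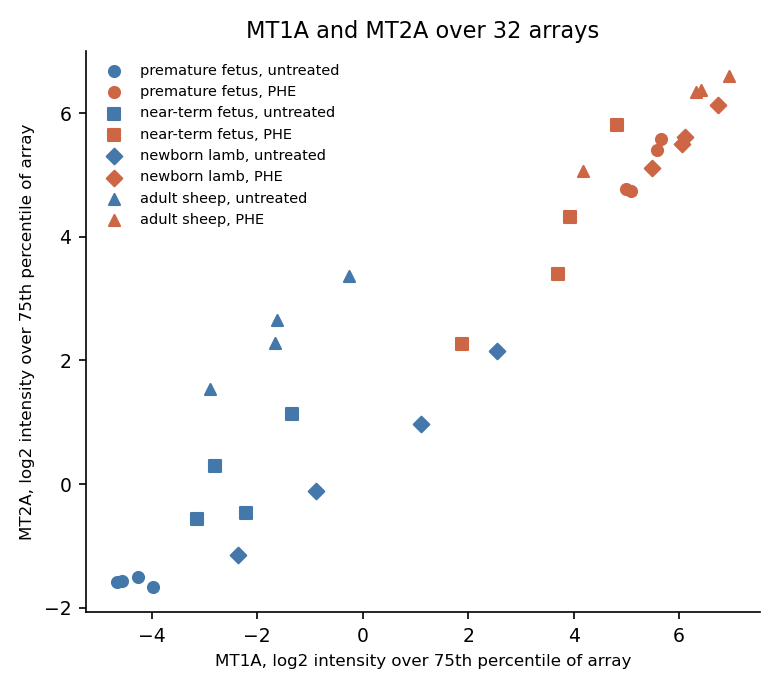
MT2A against MT1A on each of 32 arrays (both log2 intensity over the 75th percentile of the array), with age by symbol and treatment by colour. The arrays lie along a single band (Pearson's r = 0.949), and untreated adult arrays lie on its upper side.

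The genes most like MT1A over the 32 arrays, of 2072 named genes, were SDC4 (Pearson's r = 0.953), MT2A, CEBPD (0.943), TIPARP (0.942) and ETS2 (0.938). For MT2A they were MT1A, SDC4 (0.931), TNFRSF12A (0.923), CTH (0.919) and CEBPD (0.913). SDC4 encodes a heparan sulfate proteoglycan of the cell surface, CTH an enzyme that makes cysteine, and TNFRSF12A the receptor of TWEAK. All of these were named through the authors' list. Those other than MT1A and MT2A were called higher with PHE at all 4 ages. In the premature fetus, near-term fetus, newborn lamb and adult sheep the rise was 4.00, 2.81, 2.83 and 3.39 for SDC4. For CTH it was 4.44, 2.10, 3.79 and 2.86. The near-term CTH call was kept in 10 of 14 alternatives. The adult TNFRSF12A call was kept in 8 of 14 alternatives and in 3 of 8 fits with an array of that age left out. Their likeness describes these arrays and is not independent of the PHE effect.

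Unlike MT1A and MT2A, MT3 was named by its accession. Its 2 probes correlated over the 32 arrays (Pearson's r = 0.978) and never differed by more than 0.48, and the brighter probe is given. Near term MT3 was 3.04, 2.74, 3.85 and 4.28 on untreated replicates 1 to 4 and 2.77, 1.89, 1.13 and 0.63 with PHE. All untreated near-term arrays were high, and PHE replicate 1 alone reached their range. MT3 fell with PHE by 1.87 ± 0.31 (SE), lower in 4 of 4 differences taken by number (limma, adjusted p = 5.54e-05). Numbers were not taken as pairing at this age. Fitted to the near-term arrays alone, where 266 genes were called against 3428 in the fit to all arrays, the adjusted p was 0.084. Within slide 1 the difference was -2.68. The part of other cells in this fall was not tested.

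At the other ages MT3 lay between 0.62 and 1.73 on every array. The PHE effect was -0.45 ± 0.31 (SE) in the premature fetus (limma, adjusted p = 0.341), -0.13 in the newborn lamb (adjusted p = 0.875) and 0.38 in the adult sheep (adjusted p = 0.696). In the premature fetus it was negative in 4 of 4 same-number differences (-0.69 to -0.22), and the groups did not overlap. This 1.37-fold difference lay below the threshold of 1.5, with adjusted p from 0.00614 to 0.547 over the alternatives. Untreated adult arteries were lower than near-term arteries by 2.59 ± 0.31 (SE), in 4 of 4 arrays (limma, adjusted p = 2.08e-07). Within slides 2 and 3 the difference was -2.10 and -2.46, and the call was lost within slide 2 (adjusted p = 0.086, 2 adult arrays against 1 near-term array) and kept in the other 15 of 16 alternatives. The difference of PHE effects, adult minus near-term, was 2.26 ± 0.44 (SE) (limma, adjusted p = 0.00264), and with the 16 arrays of these ages alone its adjusted p was 0.119. Over 32 arrays MT3 correlated with MT1A by Pearson's r of -0.34 and Spearman's rho of -0.31 (0.22 and 0.24 for deviations from group means), and with MT2A by -0.32 and -0.25 (0.43 and 0.51 for deviations). MT4 was well above background on 2 of 32 arrays and was not tested.

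**Figure D4:**
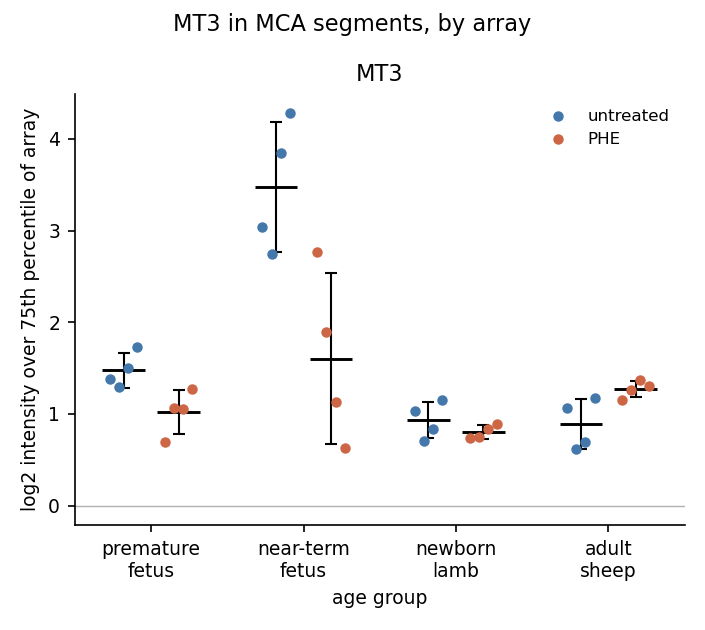
MT3 on each array (log2 intensity over the 75th percentile of the array) by age, untreated in blue and PHE-treated in orange, with the mean as a bar and the SD as an error bar (n = 4). Untreated near-term arteries (3.48 ± 0.71) stand above all other groups, and the PHE-treated near-term arrays spread from 0.63 to 2.77.

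Genes that carry zinc and copper were then examined beside the metallothioneins. Of 40 listed genes, which include MT3 and MT4 but not MT1A or MT2A, 11 had a symbol on the array, and neither MTF1 nor the zinc exporter SLC30A1 was among them. CP and MT4 were not tested at any age. In the premature fetus 1 of 9 tested genes was called higher and 1 lower, near term 2 of 8 higher and 4 lower, and in the newborn lamb 1 of 8 higher and 1 lower. The order of these ages was not stable, since fits to the arrays of each age alone called 6 genes in the premature fetus and 1 near term, and the methods' t-test with adjustment called 5 and 0. In the adult sheep 0 of 9 were called by limma, 0 at an unadjusted p under 0.05, and 1 by the methods' t-test without adjustment. Of all genes tested, 8.71% were called higher and 8.79% lower in the premature fetus, 17.2% and 18.7% near term, and 5.48% and 5.5% in the newborn lamb. The median difference was -0.48, -0.64, -0.19 and -0.24 over the list and -0.09, -0.09, -0.08 and -0.05 over all genes tested. Among the members not named through the authors' list, 0 of 3, 2 of 3 (both lower), 0 of 2 and 0 of 3 were called.

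The genes of this list called higher with PHE were SLC39A6, SLC39A7 and SLC39A14, which encode zinc transporters. SLC39A6, which brings zinc into the cytosol, was higher with PHE by 1.52 ± 0.53 (SE) in the premature fetus (limma, adjusted p = 0.0442) and by 2.27 ± 0.53 near term (adjusted p = 0.00144). SLC39A7, which releases zinc from the endoplasmic reticulum, rose by 3.41 ± 0.45 near term (limma, adjusted p = 4.53e-06), and SLC39A14 rose by 1.48 ± 0.47 in the newborn lamb. There SLC39A14 was not well above background on every untreated array and passed the filter through the PHE-treated arrays alone. Its size therefore depends on dim values, and no p is given. The SLC39A6 call in the premature fetus was kept in 0 of 8 fits with an array of that age left out, and was lost with the replicate block of paired arrays (adjusted p = 0.0637), quantile normalization (0.147), scaling to the median (0.121) and no filter (0.0693), among alternatives from 1.64e-07 to 0.147. The near-term SLC39A6 call was kept in 9 of 14 alternatives. The SLC39A14 call was kept in 1 of 8 fits with an array of that age left out and in 10 of 14 alternatives. The rise of SLC39A7 differed between ages, larger near term than in the premature fetus by 2.72 ± 0.64 (limma interaction, adjusted p = 0.0162) and smaller in the adult sheep than near term, by -3.11 ± 0.64 (adjusted p = 0.00413). In the fit to the 16 adult and near-term arrays alone 0 of 9962 genes were called, SLC39A7 included.

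Besides MT3, the genes of this list called lower with PHE were ATOX1, COX17, COX11 and SCO2. Near term ATOX1, the copper chaperone of the secretory pathway, fell by 1.32 ± 0.28 (SE), and COX17 and COX11, which serve copper insertion into cytochrome oxidase, fell by 1.56 ± 0.30 and 0.86 ± 0.20 (limma, adjusted p = 0.00064, 0.000235 and 0.00164). These calls were kept in 11, 12 and 10 of 14 alternatives. With the near-term arrays fitted alone the adjusted p was 0.0835, 0.09 and 0.174, and of the 6 genes called near term only SLC39A7 was called in that fit (adjusted p = 0.0208). SCO2, another copper chaperone of cytochrome oxidase, fell by 1.22 ± 0.26 in the premature fetus (limma, adjusted p = 0.00125) and by 1.49 ± 0.26 in the newborn lamb (adjusted p = 0.000222). ATP7B, a copper-exporting ATPase, was called at no age with PHE (-0.62, 0.06 and -0.30 at the 3 ages tested) but was lower in untreated newborn than premature arteries (-2.02 ± 0.45). It passed the filter there through the premature arrays alone, so that its size depends on dim newborn values and no p is given. In the same comparison COX17 was higher (1.38 ± 0.30, limma, adjusted p = 0.00237).

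**Figure D5:**
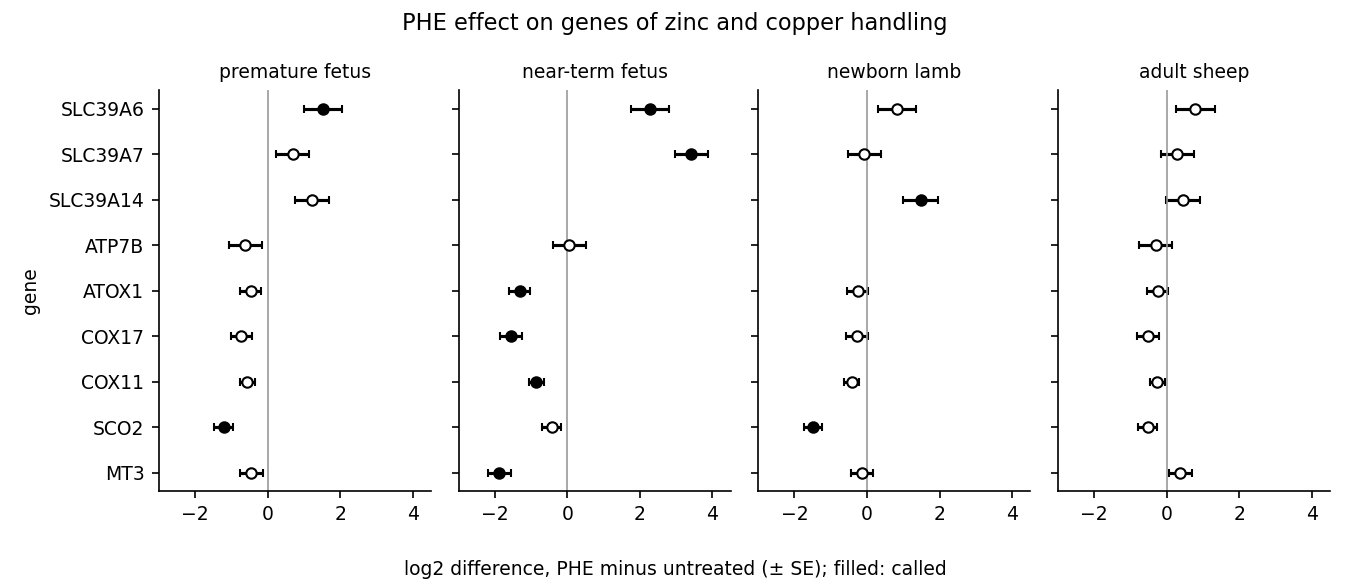
PHE effect (log2 difference, PHE minus untreated, n = 4 against 4, ± SE from the spread common to all groups) on the tested genes of zinc and copper handling. Each age group is shown, with filled points for genes called. SLC39A7 near term lies highest (3.41), and no point is filled in the adult sheep.

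Other programs known to act on metallothionein genes, or to share their stimuli, were described by the same counts, to be read beside the 8.71%, 17.2%, 5.48% and 2.78% of all genes called higher in the premature fetus, near term, newborn lamb and adult sheep. Genes named through the authors' list were called higher more often than these shares. Outside that list 356 of 8175, 1028 of 8016, 183 of 7880 and 76 of 7776 genes tested were called higher. Of glucocorticoid-responsive genes, 8 of 12 tested were called higher in the premature fetus, 6 of 11 near term, 6 of 11 in the newborn lamb and 6 of 11 in the adult sheep, and only FKBP5 near term was called lower (-1.29). CEBPD rose by 5.56, 4.44, 3.04 and 3.76 and ERRFI1 by 4.66, 2.71, 2.81 and 3.42. CEBPB, which also belongs to the acute phase, rose by 5.01, 2.95, 2.62 and 2.34, and the NF-kB inhibitor NFKBIA by 4.24, 2.05, 2.41 and 1.12. The adult NFKBIA call was kept in 5 of 14 alternatives and in 1 of 8 fits with an array of that age left out. In untreated arteries 7 of 12 were called higher and 1 lower in the newborn lamb than in the premature fetus, where 592 of 9559 genes tested were higher and 510 lower. Between adult and near-term arteries 6 of 10 were higher and 2 lower, where 1965 of 9392 genes were higher and 2161 lower (2945 and 1487 with quantile normalization, 3526 and 1071 with scaling to the median). The difference of PHE effects, near-term minus premature, was called negative for 6 of 12 and positive for none, where 222 of 10279 genes were negative and 273 positive. The methods' t-test with adjustment called 10, 1, 7 and 0 of these genes higher with PHE, and without adjustment 10, 5, 8 and 5, where in these lists a count without adjustment rests on p alone, without the 1.5-fold threshold. The list's median was 2.29, 1.86, 1.71 and 1.12 with PHE. Of its members not named through the authors' list, 1 of 3, 1 of 2, 1 of 2 and 1 of 2 were called higher.

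Of acute phase and IL6 signalling genes, 9 of 11, 7 of 10, 7 of 11 and 5 of 10 were called higher in the same order of ages and 1 lower near term (JAK1, -0.84), with medians of 4.54, 2.62, 2.44 and 1.67. Of members not named through the authors' list, 4 of 4, 4 of 4, 4 of 4 and 3 of 3 were called higher. These were IL6, IL1B, CEBPB and, except in the adult sheep, TNF. IL6 and TNF passed the filter through the PHE-treated arrays alone wherever they were tested. IL1B did so in the premature fetus and newborn lamb, so that nothing is read from this count. The methods' t-test with adjustment called 9 of these genes higher in the premature fetus, 0 near term (7 without adjustment), 7 in newborn and 0 in adult arteries (5 without). IL6 was not well above background on any untreated premature, newborn or adult array and was at least 1130-fold, 363-fold and 140-fold higher with PHE, where these bounds set each untreated array at its lowest signal above background. IL1B and SOCS3, an inhibitor of cytokine signalling, were called higher at all 4 ages. Sizes are given where every untreated array was well above background, 3.52 near term and 3.45 in the adult sheep for IL1B and 7.29 in the adult sheep for SOCS3. The adult IL1B call was kept in 11 of 14 alternatives. The difference of effects, near-term minus premature, was called negative for 5 of 11 of these genes and positive for none, where 222 of 10279 genes were negative. IL6 and IL1B were among them. Untreated IL6 was well above background on 0 of 4 premature and 1 of 4 near-term arrays, and IL1B on 2 of 4 premature arrays. Their differences therefore rest on dim untreated values.

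Of heat shock genes, 10 of 11, 11 of 11, 2 of 11 and 3 of 10 were called higher, with medians of 1.87, 2.82, 0.77 and 1.13. Of members not named through the authors' list, 1 of 2, 2 of 2, 0 of 2 and 1 of 2 were called higher. The methods' t-test with adjustment called 8, 0, 4 and 0 higher, and without adjustment 10, 10, 6 and 5. BAG3 rose by 2.71, 2.82, 1.80 and 1.84, and HSPA4 was at least 22.6-fold and 18.4-fold higher in premature and near-term arteries, the near-term call being kept in 10 of 13 alternatives. HSPH1 and HSP90AA1 rose by 3.34 and 1.42 in the premature fetus. Of antioxidant genes, 7 of 11, 4 of 11, 6 of 11 and 1 of 11 were called higher and 1, 4, 0 and 0 lower, with medians of 1.53, 0.19, 1.04 and 0.23. The methods' t-test with adjustment called 7, 0, 5 and 0 higher. Of the 3 members not named through the authors' list, 1, 1, 1 and 0 were called higher and 1, 2, 0 and 0 lower. SQSTM1 and SOD2 rose at the 3 ages before adulthood, in the premature fetus by 2.19 and 2.10, and near term these calls were kept in 12 and 10 of 14 alternatives. MAFG was called at the same ages, but near term the call was kept in 9 of 14 alternatives and in the newborn lamb in 3 of 8 fits with an array of that age left out. Of iron genes, 2 of 7, 1 of 7, 2 of 7 and 2 of 7 were called higher, with medians of -0.03, 0.09, 0.46 and 0.49. The methods' t-test with adjustment called 3, 0, 3 and 0 higher, and 0 of 2 members not named through the authors' list were called at each age. HMOX1, which breaks down heme, rose by 2.10 in the premature fetus and 2.70 in the adult sheep and was at least 6.67-fold higher in the newborn lamb. Its probe was not well above background on every untreated adult array, so that the adult size depends on dim values. The HMOX1 call was kept in 0 of 8 such fits in the premature fetus and 3 of 8 in the adult sheep, where 9 of 14 alternatives kept it. SLC11A2 rose by 1.73 in the premature fetus, and near term SLC40A1 fell by 0.93, a call kept in 10 of 14 alternatives. NCOA4 was called higher near term, but the call was kept in only 8 of 14 alternatives, and its probe was well above background on 1 of 4 untreated arrays. Most genes of these lists carry names from the authors' list of altered genes, which selects for change, and the lists overlap in HMOX1 and CEBPB.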

How the data were processed

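The authors made the intensity values with Agilent Feature Extraction 9.5.3.1, which subtracts background from each spot; the deposited files hold these processed intensities and, per the file headers, other columns with quality marks for each spot (well above background, outlier, saturated). The deposited table of all samples equalled the scanner files on 32 of 32 arrays. Outlier spots (1 to 53 an array) were left out, duplicate spots averaged over 15008 probes, and values divided by the 75th percentile of the array and put on the log2 scale. A gene was represented by its brightest probe.

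Probes were named by accession (655), by the array file (658), or by matching group means of the authors' list of altered genes (1790), and 11905 stayed unnamed. The near-term means in that list leave out PHE replicate 1, which was kept here. limma 3.58.1 in R 4.3.3 fitted 8 group means with a common spread, tested differences between untreated groups and, for genes other than MT1A and MT2A, PHE effects and their differences between ages, and adjusted p-values over all genes tested. Tables and plots used Python 3.11.15 with numpy 2.4.6, pandas 2.3.3 and matplotlib 3.10.9. The code was tested on simulated data.

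Same-number treated and untreated arrays correlated (Pearson's r of deviations) by 0.36 to 0.55 in the premature fetus and 0.50 to 0.60 in the newborn lamb, which was taken as pairing, and by -0.19 to 0.33 near term and -0.10 to 0.04 in the adult sheep, which was not. Pairing as a replicate block was an alternative, as were other background corrections, scalings, filters, array weights, slide as a block, the methods' t-test and leaving out each array.

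Genes were named if they were metallothioneins, tested genes of zinc and copper handling, up to 4 genes a list called at the most ages, or the 5 most like each member. Members and lists were chosen with earlier results of these data known.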

Additional observations from a re-analysis of the deposited data

Results flagged for a closer look

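MT2A in the PHE-treated adult sheep had 1 array far from the others, replicate 2 at 5.07, where the gap to the next array was 0.832 of the range of the group. Of 24 groups examined 1 stood apart in this way, and chance gives about 1 in 20 groups. The same array was the lowest of its group in 67.3% of the 850 genes called higher with PHE in the premature fetus, against 27.0% of all genes tested.

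The PHE effect differed between ages for MT1A (near-term minus premature, -3.73, with 4 of 4 near-term differences below every premature one) and for MT2A (-2.85, 3 of 4). These values were picked out by the fit's term for the difference. It is built from the PHE effects that chose both genes, so they are a description. For MT3, named by accession, the effects differed in a test of the difference itself (adult minus near-term, 2.26, limma, adjusted p = 0.00264). Its adjusted p was 0.000142 to 0.119 over the alternatives. By number, 4 of 4 adult MT3 differences lay above every near-term one. Numbers were not taken as pairing near term or in the adult sheep, so that this MT3 count depends on the numbering. Near-term arrays differ in brightness, and the part of this in the differences was not tested.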

How the results depend on the processing

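The PHE effect of MT1A and MT2A stayed positive at every age under all alternatives. It moved by more than the spread between replicates with normexp background correction (MT1A 7.32 premature and 4.48 near-term, MT2A 6.12 premature), with slide as a block (MT1A 4.94 near-term) and with quantile normalization (MT2A 7.01 premature). With each array left out it was 9.59 to 9.83, 5.56 to 6.54, 5.18 to 6.81 and 7.15 to 8.17 for MT1A and 6.55 to 6.83, 3.23 to 4.41, 4.58 to 5.69 and 3.32 to 3.97 for MT2A (premature, near-term, newborn, adult).

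Untreated newborn minus premature missed the threshold for MT1A with the methods' adjusted t-test (4.47, p 0.0822), and for MT2A with normexp (1.34, 0.137) and the methods' t-test, adjusted or not (2.05, 0.148 and 0.0632). With normexp MT1A fell to 2.56. Left-out ranges were 3.66 to 5.29 and 1.49 to 2.59. Untreated adult minus near-term reversed for MT1A with normexp (-0.48) and on slide 2 (-0.059), and MT2A on slide 2 was 2.38, where the single near-term array is assumed to vary like the 2 adult arrays; the fits within slides were chosen after seeing the data. Left-out ranges were 0.32 to 1.20 and 2.07 to 2.71.

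Differences between PHE effects are a description, and the threshold serves here only to compare fits. Near-term minus premature missed it for MT1A with normexp (-2.83), no filter and the replicate block (-3.73 in both), and for MT2A with normexp (-2.41), median scaling (-2.89) and no filter, only the arrays compared and the replicate block (-2.85 in each). Left-out ranges were -4.14 to -3.16 and -3.47 to -2.29, and for each gene only 4 of 16 such fits kept the result. Newborn minus premature for MT1A, not past it, was -1.73 with normexp and came past it with array weights (-3.57). Left-out ranges were -4.52 to -2.89 and -2.12 to -1.02 there, 0.76 to 2.40 and -2.05 to -0.95 for adult minus newborn, and 1.04 to 2.20 for MT1A in adult minus near-term. Adult minus near-term for MT2A, never past it, reversed with slide as a block (0.43), array weights (0.0063), and without adult untreated replicate 2 (0.08), adult PHE replicate 2 (0.12), near-term untreated replicate 2 (0.0032) or near-term PHE replicate 2 (0.40), in a left-out range of -0.78 to 0.40.

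Zinc and copper genes called in the premature fetus were 2, and 1 with median scaling or no filter, 6 with only the arrays compared, 5 with array weights or the methods' t-test, adjusted or not (3 higher and 5 lower at an unadjusted p alone, without the fold threshold), and 0 with names by accession or file (1 to 4 with an array left out). Near term they were 6, and 1 with only the arrays compared, 0 with the adjusted t-test and 2 with names by accession or file. In the newborn lamb they were 2, and 0 with normexp or names by accession or file, and 1 with quantile normalization, a stricter filter or no filter (1 to 2 with an array left out). There the methods' adjusted t-test called 3, of which 2 were higher and 1 lower. In the adult sheep they were 0, and 1 with array weights or the unadjusted t-test. Scaling to the median moved the median of all genes with PHE from -0.09 to -0.21 in premature and from -0.09 to -0.24 in near-term arteries.

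Of 85 calls of named genes with PHE, 30 were kept in all fits, and 1683 of 1864 fits kept the call. A stricter filter gave no value for MT1A where untreated premature arrays were compared. The cause of these changes was not tested. Signal over background limits the near-term values, where the 75th percentile of 1 array was 1.43 times its background.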
